A study of Mus musculus with 4 samples.

Results

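The inflammatory chemokines of medullary thymic epithelial cells (mTECs) were examined as a set of 8 genes, Ccl11, Ccl20, Ccl5, Ccl6, Ccl9, Ccl2, Cxcl9 and Cxcl10, out of 31053 features in each count matrix. Each symbol matched 1 feature, and all 8 genes were measured in every library. The members were chosen by their UMI levels in the marker gates of these same libraries, so the levels given here describe the genes and carry no test. In the GRCm38 annotation Ccl20 lies on chromosome 1 (chr1:83116766-83119167), Cxcl9 and Cxcl10 lie on chromosome 5 (chr5:92321347-92328079 and chr5:92346638-92348889), and the other 5 genes lie on chromosome 11 in a pair, Ccl2 and Ccl11 (chr11:82035571-82037453 and chr11:82057823-82062955), and a row of Ccl5, Ccl9 and Ccl6 (chr11:83525778-83530518, chr11:83572919-83578636 and chr11:83587882-83593087). Between 5428 unique molecular identifiers (UMIs, each marking 1 captured mRNA molecule) for Ccl2 and 120665 for Cxcl10 were counted over the 4 libraries.

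Inflammatory chemokines are small secreted proteins that guide leukocytes through G protein-coupled receptors, and in the thymus they are made by epithelial, mesenchymal and haematopoietic cells. CCL11 (eotaxin) acts through CCR3 on eosinophils, CCL20 through CCR6 on lymphocytes and dendritic cells, CCL2 through CCR2 on monocytes, CCL6 and CCL9 through CCR1 on myeloid cells, and CCL5 through several receptors of T cells and myeloid cells. CXCL9 and CXCL10 are interferon-induced ligands of CXCR3, a receptor of activated T cells and NK cells. mTECs are the stromal cells that display tissue-restricted antigens to developing T cells, and their maturation is driven by the TNF receptor family members RANK and CD40, which feed into NF-kB.

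The genes were followed in 4 libraries of thymic epithelial cells sorted as EpCAM+ CD45- TER119- from C57BL/6 mice of 6 weeks. Wild-type mice had been given a control IgG (WT-Control) or a RANKL-neutralizing antibody (WT-RANKL-Ab), and mice that lack Cd40 had been given the same reagents (Cd40-/- Control and Cd40-/- RANKL-Ab). The antibody was given at 5 mg/kg 2 weeks before the analysis. Cells of 3 mice were pooled per library, and each condition has 1 library, so no difference between conditions has a replicate and no difference was tested. Cd40 is lost from all cells of the mutant and RANKL is neutralized in the whole animal, so neither perturbation is limited to the epithelium.

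After filtering, 10218 control and 7164 antibody-treated wild-type cells were kept, with 8591 and 2082 such cells of the mutant, and medians of 6086 to 7621.5 UMIs a cell. Cd40 itself stood at 110 UMIs per 1000000 (CPM) in WT-Control and 28.8 in WT-RANKL-Ab, and at 5.75 and 4.75 CPM in the Cd40-/- libraries. At least 95.1% of the cells of each library carried a UMI of an epithelial gene. This is not a measure of purity, since 11.2% of the Cd40-/- RANKL-Ab cells fell in the T cell gate described below. Cd40-/- Control and Cd40-/- RANKL-Ab shared 210 cell barcodes, 10.0% of those of Cd40-/- RANKL-Ab, whereas every other pair of libraries shared 0.858% to 1.44% of the smaller one. In 184 of the 210 the Cd40-/- Control copy held under 10% of the UMIs of the other copy, with a median of 2.82%. The levels of the 8 chemokines in Cd40-/- RANKL-Ab over all cells and in its largest gates are therefore also given without shared barcodes. This step also leaves out the deep copies, of a median of 23858 UMIs in Cd40-/- RANKL-Ab against 724 in Cd40-/- Control. It took Cd40-/- RANKL-Ab from 2082 to 1834 cells and Cd40-/- Control from 8591 to 8173. Over all cells of Cd40-/- Control, Cxcl10 went from 552 to 555 CPM, Ccl20 from 222 to 223 and Ccl2 from 26.4 to 27.0. Cells were assigned to 12 classes by marker scores, and each class is a range of a score rather than a cell type. The 2 largest of the mTEC gates, for CCL21+ mTEC-like cells and for Aire+ mTEC-like cells, held 5489 and 3260 cells, of which 861 and 441 lay within 0.1 score units inside their limit. Ccl21a stood at 20476 to 39134 CPM in the CCL21+ gate, and Aire at 467 to 771 CPM in the Aire+ gate of the 3 libraries with at least 30 such cells. Where values are listed without names, they stand in the order WT-Control first, WT-RANKL-Ab second, Cd40-/- Control next and Cd40-/- RANKL-Ab last. The Aire+ gate held 2038, 208, 1011 and 3 cells in this order, and the CCL21+ gate 1914, 1892, 1084 and 599. In the marker gates, as in all cells, values are UMIs summed over cells per 1000000 UMIs of those cells, with exact Poisson 95% intervals that cover counting error only.

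Over all cells, each of the 8 chemokines was highest in WT-Control and lowest in Cd40-/- RANKL-Ab. Cxcl10 stood at 701 CPM (95% interval 696 to 706) in control and 267 (263 to 272) in antibody-treated wild-type mice, and at 552 (546 to 557) and 225 (218 to 232) in the corresponding Cd40-/- mice. Ccl5 stood at 628, 216, 261 and 11.1 CPM in the same order. Ccl20 stood at 343, 46.1, 222 and 1.25 CPM, the last value resting on 24 UMIs. The 3 genes thus spanned from a 3.12-fold (Cxcl10) to a 274-fold (Ccl20) lower level in Cd40-/- RANKL-Ab than in WT-Control, with 95% intervals of 3.02 to 3.21 and 184 to 428. Ccl11 stood at 274, 81.2, 183 and 13.8 CPM. Cxcl9 stood at 160, 45.9, 140 and 7.62 CPM, and Ccl9 at 112, 35.3, 79.3 and 1.67 CPM. Ccl6, with 69.7, 23.6, 50.6 and 1.88 CPM, and Ccl2, with 33.2, 9.13, 26.4 and 3.55 CPM, were the least abundant of the set in WT-Control. Without shared barcodes the Cd40-/- RANKL-Ab levels were 226 CPM for Cxcl10, 15.9 for Ccl11, 10.7 for Ccl5, 8.54 for Cxcl9, 3.65 for Ccl2, 2.63 for Ccl6, 2.26 for Ccl9 and 1.61 for Ccl20, so the gene with the lowest level was still Ccl20.

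**Figure D1:**
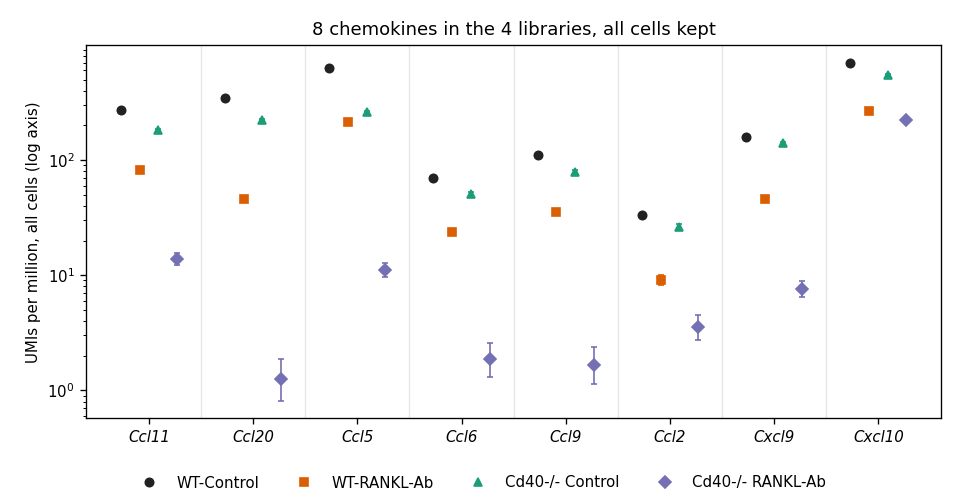
UMIs per 1000000 (CPM, log axis) of each of the 8 chemokines over all kept cells in the 4 libraries, with exact Poisson 95% intervals as bars. Each gene is highest in WT-Control and lowest in Cd40-/- RANKL-Ab, and Cxcl10 keeps 225 CPM there whereas Ccl20 is at 1.25 CPM.

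A gene was called when its CPM, with 1 CPM added, differed more than 2-fold between libraries, among genes with at least 20 UMIs in both together. With WT-RANKL-Ab set against WT-Control, 8 of the 8 chemokines were lower, where 13.6% of all 20414 genes measured were lower, and the log2 ratios ran from -1.39 for Cxcl10 to -2.90 for Ccl20 around a median of -1.69 (all genes, -0.01). In Cd40-/- Control against WT-Control 1 of 8 was lower, where 1.11% of genes were lower. This was Ccl5, at 2.41-fold (95% interval 2.37 to 2.45), and the count became 0 when each cell was given equal weight. The other ratios of that comparison lay between -0.19 for Cxcl9 and -0.63 for Ccl20 on the log2 scale. In Cd40-/- RANKL-Ab, 8 of 8 were lower than in WT-Control (18.9% of genes) and 8 of 8 were lower than in Cd40-/- Control (17.8% of genes). None of the 8 was called higher in any of the 4 comparisons over all cells, where 4.45%, 2.52%, 9.15% and 3.07% of all genes were higher in the order given. The first 3 comparisons share WT-Control, and the genes were picked with these values in view, so the counts stand as descriptions.

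Sums over all cells join the level in each class with the number of cells of the class, and the class in which a gene was found differed sharply among the 8. Over the cells of WT-Control, the CCL21+ gate held 55.4% of the Ccl11 UMIs. The microfold gate held 53.9% of those of Ccl20, 62.5% of those of Ccl6 and 52.4% of those of Ccl9. The Aire+ gate held 50.7% of the Ccl5 UMIs, 46.2% of the Cxcl9 UMIs, 37.4% of the Ccl2 UMIs and 34.4% of the Cxcl10 UMIs. Of the UMIs of all genes in WT-Control, the CCL21+ gate held 13.5%, the microfold gate 2.73% and the Aire+ gate 24.9%. In Cd40-/- Control each of these gates remained the one with the largest share, with 51.4% for Ccl11, 65.2% for Ccl20, 38.4% for Ccl5 and 25.1% for Cxcl10. In WT-RANKL-Ab the CCL21+ gate held 27.9% of the Cxcl10 UMIs, close to its 26.4% of the UMIs of all genes. The Aire+ gate held 8.18% of the Cxcl10 UMIs there, above its 2.78% of the UMIs of all genes. Cells outside every gate held up to 31.6% of the UMIs of a gene in these libraries (Cxcl9 in WT-RANKL-Ab).

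**Figure D2:**
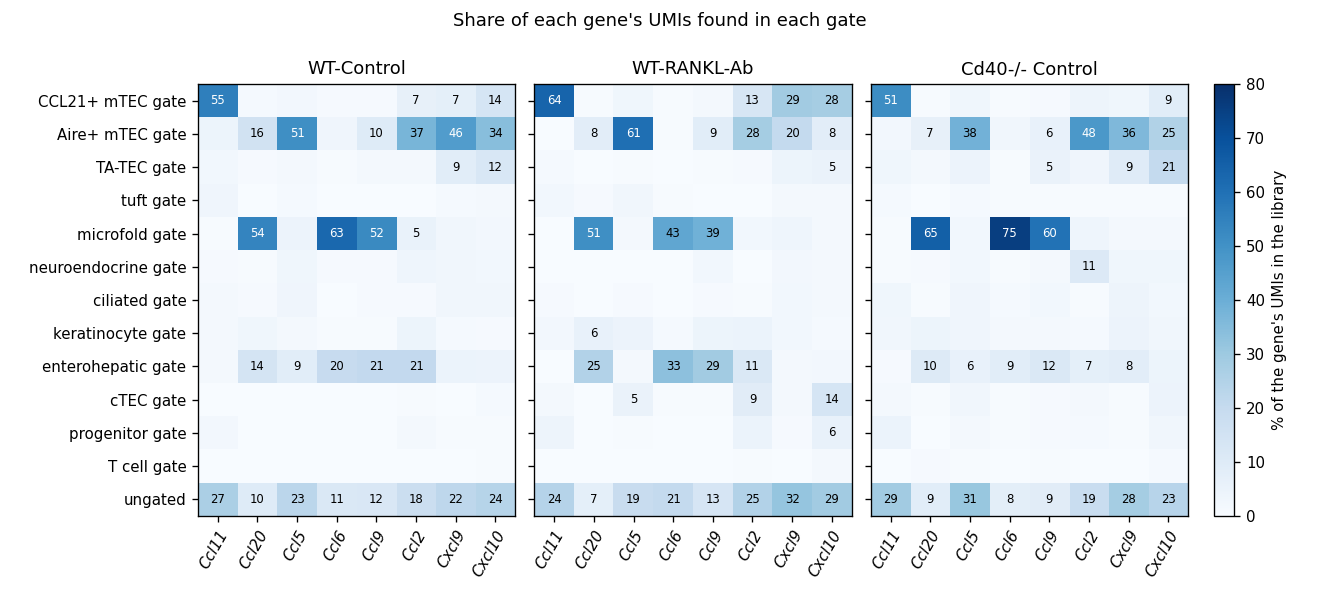
Percent of the UMIs of each chemokine (columns) that fell in each marker gate (rows), drawn for WT-Control, WT-RANKL-Ab and Cd40-/- Control. In WT-Control the largest share of Ccl11 falls in the CCL21+ gate, that of Ccl20, Ccl6 and Ccl9 in the microfold gate, and that of Ccl5, Cxcl9 and Ccl2 in the Aire+ gate.

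Among the ligands of eosinophils and monocytes, Ccl11 was the gene of the CCL21+ gate. This gate holds cells that express Ccl21a, the chemokine of the medulla that draws positively selected thymocytes, with the basal keratins Krt5 and Krt14, and its leading genes over the other gates were Acta2, Ccl11 and Krt14. Ccl11 stood at 1126 CPM (1108 to 1144) in control and 197 (189 to 205) in antibody-treated wild-type mice, and at 992 (967 to 1016) and 28.6 (24.0 to 33.9) in the corresponding Cd40-/- mice. The controls of both genotypes were thus close, the antibody-treated wild type was lower, and the antibody-treated mutant was lower still. Relative to WT-Control the level was 5.71-fold lower in WT-RANKL-Ab (5.48 to 5.96), 1.14-fold lower (1.10 to 1.17) in control mutants and 39.3-fold lower (33.2 to 46.9) in antibody-treated mutants. Relative to Cd40-/- Control it was 34.6-fold lower in Cd40-/- RANKL-Ab (29.2 to 41.4). Without shared barcodes the Cd40-/- RANKL-Ab level was 27.3 CPM. When the 1% of cells richest in Ccl11 were left out of each library, the log2 ratio of Cd40-/- RANKL-Ab to WT-Control moved from -5.30 to -6.05.

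The share of cells with a Ccl11 UMI moved with the level. After each cell was thinned to 1000 UMIs, 37.5% (35.2 to 39.7) of control and 8.80% (7.55 to 10.2) of antibody-treated wild-type cells of the CCL21+ gate held 1 or more, and 36.0% (33.0 to 38.9) and 1.68% (0.814 to 3.07) of the mutant cells did (exact Clopper-Pearson intervals). Before thinning the shares were 59.6%, 17.4%, 59.8% and 7.51%. Positive cells held means of 2.99, 2.31, 2.76 and 1.40 thinned UMIs, so both fewer positive cells and fewer UMIs in each were counted under the antibody. In the T cell gate, used for comparison, the thinned shares were 4.62%, 0%, 0.608% and 0%, where 0 of 217 cells of WT-RANKL-Ab allows up to 1.38% and 0 of 212 of Cd40-/- RANKL-Ab up to 1.42%. Median depths were 5430 to 7173 UMIs in the CCL21+ gate and 1855 to 1949 in the T cell gate of the last 3 libraries, whereas its 73 cells in WT-Control had a median of 4022. No doublet caller was run. The Cd40-/- RANKL-Ab share of 1.68% stood near the limits of the T cell gate. Thinning left out 61, 28, 41 and 5 cells of the CCL21+ gate that had under 1000 UMIs.

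Outside the CCL21+ gate, Ccl11 of WT-Control was next highest in the progenitor gate (Pdpn, Ackr4, Dcn), with 232, 28.2, 170 and 20.6 CPM (the last 22.3 without shared barcodes). There the log2 ratio of WT-RANKL-Ab to WT-Control was -3.04, and it was -2.09 with a stricter gate and -4.29 without the 1% of cells richest in Ccl11. The ratio of Cd40-/- RANKL-Ab to WT-Control was -3.50, and -2.25 and -5.06 under the same changes. In the tuft gate the levels were 199, 20.5, 77.0 and 2.40 CPM. The last value rests on 1 UMI in 60 cells, and 7 of the 657 WT-RANKL-Ab cells held 83.1% of the Ccl11 UMIs there. Without the 1% of cells richest in Ccl11 the tuft levels were 120, 3.54, 39.5 and 0 CPM. The keratinocyte gate, with 204, 127 and 176 CPM in the first 3 libraries, and the ciliated gate, with 171, 43.4 and 214 CPM, also held Ccl11. In the ciliated gate 3 of the 222 Cd40-/- Control cells held 61.6% of the Ccl11 UMIs. Without the 1% of cells richest in Ccl11 the levels were 145, 58.8 and 64.3 CPM in the keratinocyte gate. In the ciliated gate they were 89.0, 18.1 and 83.6 CPM, with Cd40-/- Control no longer highest. Cells with no epithelial UMI and at least 3 mesenchymal markers numbered 0, 3, 1 and 2 in the 4 libraries and held 0, 8, 3 and 4 Ccl11 UMIs, out of 26078, 3949, 12105 and 264 Ccl11 UMIs in all. Mesenchymal cells that carried an epithelial UMI were not counted by this rule. Ccl2, whose gene lies 20369 bases from that of Ccl11 on chromosome 11, stood at 16.1, 4.36, 10.5 and 1.26 CPM in the CCL21+ gate. This was lower than in the Aire+ gate, where Ccl2 stood at 49.9 CPM in WT-Control, 92.4 in WT-RANKL-Ab and 87.6 in the Cd40-/- Control library. The 1% of cells richest in Ccl2 held 81.6%, 65.6% and 79.3% of the Aire+ UMIs, and the levels without them were 9.29, 32.5 and 18.4 CPM.

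**Figure D3:**
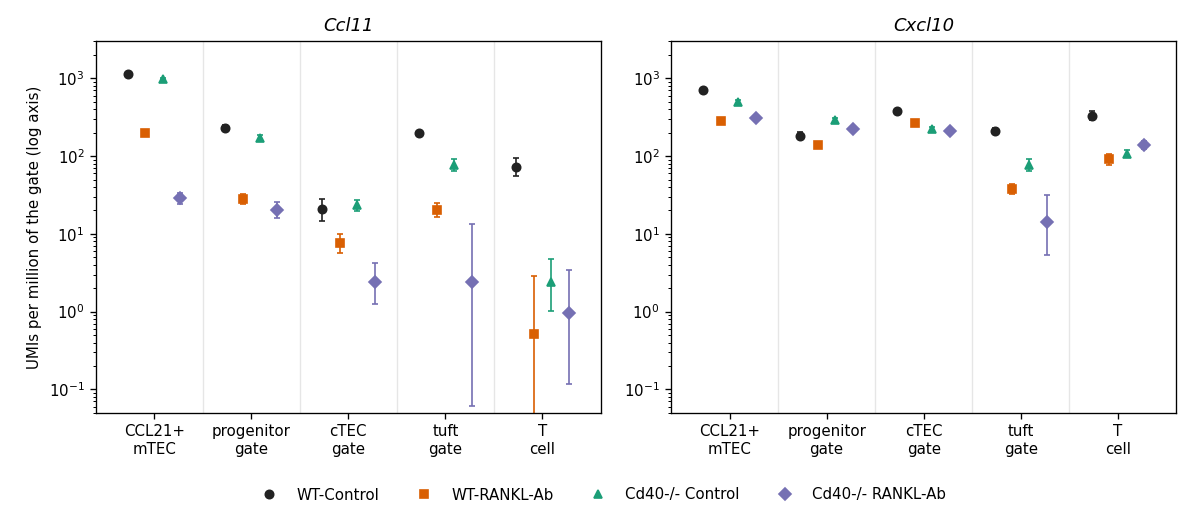
Ccl11 and Cxcl10 (CPM, log axis) in 5 marker gates of each library, with exact Poisson 95% intervals. Ccl11 in the CCL21+ gate runs from 1126 CPM in WT-Control to 28.6 CPM in Cd40-/- RANKL-Ab, whereas Cxcl10 in that gate stays between 283 and 707 CPM.

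The other members followed Ccl11 in the CCL21+ gate to different extents. In WT-RANKL-Ab against WT-Control 7 of the 8 were lower, where 2.82% of 13103 genes were lower, and Cxcl9, at 1.72-fold lower (1.56 to 1.89), was not called. In Cd40-/- Control against WT-Control 1 of 8 was lower (2.14% of genes), which was Ccl20 at 25.03 against 7.65 CPM. That call rested on 20 of the 1914 WT-Control cells, which held 67.0% of the Ccl20 UMIs with up to 81 in 1 cell. Without the 1% of cells richest in each gene Ccl20 stood at 8.41 against 4.35 CPM and was not called, and Cxcl9 (51.9 against 22.5 CPM) and Ccl6, with 0 CPM left in the mutant, were called in its place. In Cd40-/- RANKL-Ab 8 of 8 were lower than in WT-Control (5.75% of genes), and 6 of the 7 measured were lower than in Cd40-/- Control (4.68% of genes), Cxcl10 being the exception at 1.65-fold lower (1.55 to 1.75). Ccl20, Ccl6 and Ccl9 had 0 UMIs in the 599 cells of Cd40-/- RANKL-Ab in this gate, which makes Ccl20 at least 39.6-fold, Ccl6 at least 5.80-fold and Ccl9 at least 10.1-fold lower than in WT-Control (a floor of 3 counts per library). Ccl5 stood at 98.3, 24.7, 85.6 and 14.1 CPM. Its log2 ratio of Cd40-/- RANKL-Ab to WT-Control was -2.80, and -2.15 with a stricter gate. Without shared barcodes the Cd40-/- RANKL-Ab levels in the gate were 13.2 CPM for Ccl5, 17.7 for Cxcl9 and 1.44 for Ccl2.

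The interferon-induced pair Cxcl9 and Cxcl10 lies side by side on chromosome 5, with 18558 bases between the genes, and both ligands act through CXCR3. Cxcl10 was the most evenly spread of the 8 chemokines. In WT-Control 58.1% of all cells held a UMI, and the richest 1% of cells held 17.5% of its UMIs, against 28.4% for Ccl11 and 79.3% for Ccl2. In the CCL21+ gate Cxcl10 stood at 707 CPM (692 to 721) in control and 283 (274 to 292) in antibody-treated wild-type mice, and at 503 (485 to 521) and 305 (290 to 321) in the corresponding Cd40-/- mice. The libraries of antibody-treated mice of both genotypes thus lay close together and below both controls. Without shared barcodes the Cd40-/- RANKL-Ab level was 272 CPM. The thinned shares of cells with a UMI were 32.6%, 15.4%, 24.4% and 11.6%, against 13.8%, 2.76%, 7.60% and 2.36% in the T cell gate, the gate used for comparison. In the Aire+ gate Cxcl10 stood at 967 CPM in WT-Control, 786 in WT-RANKL-Ab and 964 in the Cd40-/- Control library, so that the antibody-treated wild type was 1.23-fold lower (1.16 to 1.31). The cTEC gate held 376, 268, 225 and 213 CPM, and the progenitor gate 184, 140, 290 and 226 CPM, and without shared barcodes the last values were 234 and 215 CPM. In the progenitor gate the log2 ratio of WT-RANKL-Ab to WT-Control was -0.39 as summed, -1.23 as a mean over cells and 0.15 with a stricter gate, so no direction is given.

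Cxcl9 was narrower than Cxcl10. In the Aire+ gate it stood at 296 CPM in WT-Control, 338 in WT-RANKL-Ab and 352 in the Cd40-/- Control library, and in the CCL21+ gate at 86.2, 50.3, 45.3 and 19.995 CPM in the 4 libraries. The Aire+ ratio of WT-RANKL-Ab to WT-Control had no stable sign, since it was 0.19 on the log2 scale as summed and -0.69 without the 1% of cells richest in Cxcl9. In the CCL21+ gate of Cd40-/- RANKL-Ab, 6 cells held 90.5% of the Cxcl9 UMIs. Without the 1% of cells richest in the gene, its level there was 1.92 CPM and its log2 ratio to WT-Control moved from -2.11 to -4.75. In the enterohepatic gate Cxcl9 was 156, 73.7 and 280 CPM in WT-Control, WT-RANKL-Ab and Cd40-/- Control. In thinned cells of the Aire+ gate of WT-Control, Cxcl10 was found in 63.2% of Cxcl9+ cells and in 48.4% of Cxcl9- cells, a description of the cells of 1 library.

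The promoters of this pair, read from RefSeq on GRCm38.p6 from 250 bases before to 50 bases after the start of each gene, are shown because the 2 genes share inducers and differ in the motifs held. Capitals mark matches, on either strand, to the core of the interferon-stimulated response element (ISRE; GAAA and GAAA with any 2 bases between them), to the gamma-activated site (TTCNNNGAA) or to the kB motif. The Cxcl10 window lies at chr5:92348840-92349139 and the Cxcl9 window at chr5:92328030-92328329, both on the minus strand and printed 5′ to 3′ along the gene.
Cxcl10: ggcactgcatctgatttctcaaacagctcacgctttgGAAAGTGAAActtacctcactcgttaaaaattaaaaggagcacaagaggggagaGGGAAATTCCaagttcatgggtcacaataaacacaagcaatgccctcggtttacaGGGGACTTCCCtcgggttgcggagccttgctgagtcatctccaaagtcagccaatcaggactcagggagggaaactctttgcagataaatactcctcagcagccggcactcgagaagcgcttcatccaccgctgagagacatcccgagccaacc
Cxcl9: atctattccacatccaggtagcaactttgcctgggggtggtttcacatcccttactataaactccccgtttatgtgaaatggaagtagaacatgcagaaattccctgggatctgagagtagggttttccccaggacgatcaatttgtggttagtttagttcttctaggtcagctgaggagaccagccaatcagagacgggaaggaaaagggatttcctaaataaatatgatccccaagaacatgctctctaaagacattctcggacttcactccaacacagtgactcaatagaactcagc
The Cxcl10 window held 1 ISRE core, 213 bases upstream of the start, and 3 kB matches at 159, 104 and 103 bases, the last 2 of which overlap. None of the 3 motifs was found in the Cxcl9 window. Over 32851 promoters of the same length, 3.44% held the ISRE core, 8.3% the gamma-activated site and 8.46% the kB motif. A match is a run of letters and not a measured binding site.

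CCL20, CCL6 and CCL9 formed the group of the microfold gate, which was set by Gp2, Sox8, Spib and other genes of the antigen-sampling M cells of the gut. All 3 were among its 10 leading genes. Ccl20 stood at 6768 CPM in WT-Control, 2854 in WT-RANKL-Ab and 5915 in the Cd40-/- Control library. It was 2.37-fold lower in WT-RANKL-Ab (2.23 to 2.52) and 1.14-fold lower in Cd40-/- Control (1.12 to 1.17) than in WT-Control. Ccl9 stood at 2139, 1668 and 1931 CPM and Ccl6 at 1594, 1226 and 1558 CPM. These were 1.28-fold (1.18 to 1.39) and 1.30-fold (1.18 to 1.43) lower in WT-RANKL-Ab, and neither was called. The 7 microfold markers summed to 10920, 8232 and 10641 CPM in the same cells, the order of libraries of the 3 chemokines. Pglyrp1, the largest part of the sum at 6627, 4630 and 6482 CPM, had this order. So did Spib, at 616, 408 and 477 CPM, and Atp6v0d2, at 73.3, 52.5 and 58.5 CPM. The other markers did not. Sox8 (142, 138 and 169 CPM), Tnfaip2 (417, 340 and 459) and Ctsh (1370, 1053 and 1398) were highest in Cd40-/- Control. Gp2, at 1675, 1611 and 1598 CPM, was lowest there. The part of these markers in the chemokine values was not tested. In WT-RANKL-Ab against WT-Control 4 of the 8 chemokines were lower in this gate (13.1% of genes), namely Ccl20, Ccl5, Ccl2 and Ccl11. The Ccl2 call rested on 4 WT-Control cells with 78.8% of its UMIs, and without the richest 1% of cells the levels were 14.1 and 10.2 CPM and Ccl2 was not called. Ccl5 was the 1 of 8 that was lower in Cd40-/- Control (5.85% of genes). The gate held 343, 96, 275 and 4 cells in the 4 libraries, with medians of 6633, 2231 and 5271 UMIs in the first 3, so the 96 cells of WT-RANKL-Ab were shallower. In the 4 cells of Cd40-/- RANKL-Ab the counts were 18 UMIs of Ccl20, 17 of Ccl6 and 28 of Ccl9, which were 75.0%, 47.2% and 87.5% of the UMIs of these genes in that library. All 18 and all 17 lay in 1 cell for each gene, as did 25 of the 28, so these shares rest on about 1 cell.

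The 3 genes were found in the same cells. With cells thinned to 2000 UMIs, Ccl9 was present in 96.9% of the 131 Ccl6+ cells and in 24.2% of the 132 Ccl6- cells of the microfold gate of WT-Control. Ccl20 was present in 91.8% of Ccl9+ cells and 22.1% of Ccl9- cells. The share of cells with a Ccl20 UMI at 1000 UMIs was 60.1% (54.4 to 65.7) in WT-Control, 38.8% (28.1 to 50.3) in WT-RANKL-Ab and 57.7% (51.2 to 64.0) in the Cd40-/- Control library. For Ccl9 these shares were 55.6%, 40% and 55.2%, and for Ccl6 43.1%, 32.5% and 44.8%. Before thinning the shares of Ccl20 were 65.9%, 41.7% and 65.1%. In the T cell gate the thinned Ccl20 shares were 1.54%, 0% and 2.43%.

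The promoters of Ccl20 and Ccl9 are shown because both genes were led by the same gate and both windows held a kB match, in capitals. The Ccl20 window lies at chr1:83116516-83116815 on the plus strand and the Ccl9 window at chr11:83578587-83578886 on the minus strand (RefSeq, GRCm38.p6), each printed along the gene.
Ccl20: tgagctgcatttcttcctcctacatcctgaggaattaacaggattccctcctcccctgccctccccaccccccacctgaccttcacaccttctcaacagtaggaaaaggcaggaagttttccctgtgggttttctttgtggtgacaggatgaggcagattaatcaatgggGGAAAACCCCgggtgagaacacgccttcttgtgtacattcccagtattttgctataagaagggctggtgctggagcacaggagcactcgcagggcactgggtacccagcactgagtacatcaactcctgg
Ccl9: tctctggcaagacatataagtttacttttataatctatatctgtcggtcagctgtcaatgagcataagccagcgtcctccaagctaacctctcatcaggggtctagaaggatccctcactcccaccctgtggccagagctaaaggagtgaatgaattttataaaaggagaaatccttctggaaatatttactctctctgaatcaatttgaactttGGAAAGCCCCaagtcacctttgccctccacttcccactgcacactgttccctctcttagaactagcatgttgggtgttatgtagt
Windows were read for these 4 genes and for Ccl6, and Ccl11, Ccl5 and Ccl2 were not used here. The match lay 80 bases upstream of the start in Ccl20 and 35 bases upstream in Ccl9, on the strand opposite to the gene in both. The Ccl6 window, whose gene lies 9245 bases from that of Ccl9, held none of the motifs searched. With Cxcl10, 3 of the 5 windows matched held a kB motif. The core GAGGAA of the binding site of ETS factors, a family that includes Spi-B of M cells, was found in the Ccl20 window only of the 5, with 2 matches, and in 28.3% of all promoters.

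In the enterohepatic gate, set by Hnf4a, Hnf4g and Apoa4, the same 3 chemokines showed another order of libraries. Ccl6 stood at 269 CPM in WT-Control, 831 in WT-RANKL-Ab and 104 in the Cd40-/- Control library. Ccl9 stood at 456, 1082 and 225 CPM, and Ccl20 at 949, 1214 and 560 CPM. Each was therefore highest in the antibody-treated wild type and lowest in the control mutant, with Ccl6 3.09-fold higher (2.75 to 3.46) and Ccl9 2.37-fold higher (2.15 to 2.61) in WT-RANKL-Ab than in WT-Control. Those were the 2 of 8 called higher in that comparison (5.27% of genes), and Ccl11, Ccl5 and Cxcl9 were the 3 called lower (18.5% of genes). In Cd40-/- Control 4 of 8 were lower than in WT-Control (4.64% of genes), namely Ccl5, Ccl6, Ccl9 and Ccl2. Without the 1% of cells richest in each gene Ccl6 stood at 144, 417 and 48.9 CPM and Ccl9 at 312, 804 and 182 CPM in the 3 libraries, which ended the call of Ccl9 in Cd40-/- Control. Ccl20 then stood at 650, 369 and 401 CPM, with WT-RANKL-Ab no longer highest. The microfold markers summed to 1730, 1904 and 1223 CPM in the enterohepatic gate, the same order of libraries as the 3 chemokines, and the median depths were 7034, 1775 and 5966 UMIs, and their part was not tested. The gate held 585, 117 and 405 cells, of which 128 in all lay within 0.1 score units inside its limit, and the next highest median score of its cells was that of the Aire+ class.

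**Figure D4:**
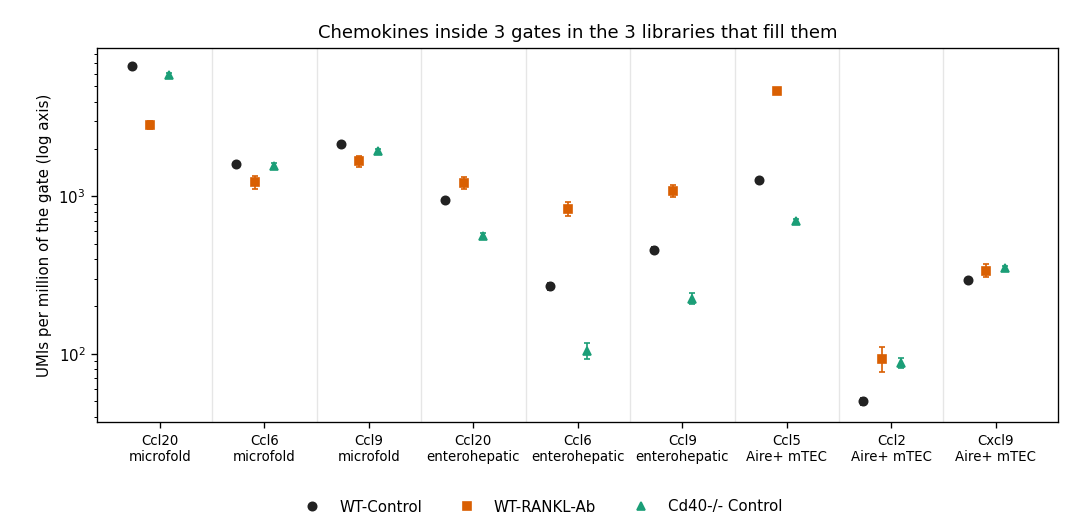
Levels (CPM, with exact Poisson 95% intervals) of Ccl20, Ccl6 and Ccl9 in the microfold and enterohepatic gates and of Ccl5, Ccl2 and Cxcl9 in the Aire+ gate, for the 3 libraries with at least 30 cells in these gates. Ccl20 is lower in WT-RANKL-Ab than in WT-Control in the microfold gate, whereas Ccl6 and Ccl9 in the enterohepatic gate and Ccl5 in the Aire+ gate are higher.

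CCL5, the ligand of effector T cells and other leukocytes, was led by the Aire+ gate and was carried by few cells. A single cell held up to 1844 Ccl5 UMIs, and the richest 1% of cells held 56.1% of the UMIs in WT-Control and 86.5% in WT-RANKL-Ab. In the Aire+ gate the level was 1278 CPM in WT-Control, 4698 in WT-RANKL-Ab and 698 in the Cd40-/- Control library, so that the antibody-treated wild type was highest, although its level over all cells was the lower. The 208 cells of WT-RANKL-Ab stood 3.68-fold (3.58 to 3.78) above those of WT-Control, and 3 of them held 46.0% of the Ccl5 UMIs. Without the 1% of cells richest in Ccl5 the levels were 710, 2612 and 294 CPM, and as a mean over cells the log2 ratio fell from 1.88 to 1.12. At 1000 UMIs a cell, 23.5% (21.7 to 25.4), 29.6% (23.1 to 36.7) and 14.4% (12.2 to 16.7) of the cells held a Ccl5 UMI, with intervals of the wild-type libraries that overlap. Positive cells held means of 6.47, 11.02 and 6.29 thinned UMIs. Before thinning the shares were 49.6%, 41.3% and 32.1%, with median depths of 11147.5, 4950 and 9144 UMIs.

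In this gate 2 of the 8 chemokines were lower in WT-RANKL-Ab than in WT-Control (19.2% of 17185 genes), namely Ccl11 and Ccl6, and 2 were higher (4.1% of genes), namely Ccl5 and Ccl9. Ccl9 stood at 44.7, 111 and 31.7 CPM, but 3 of the 208 WT-RANKL-Ab cells held 60.7% of its UMIs there. Without the 1% of cells richest in Ccl9 the levels were 24.7, 44.6 and 18.9 CPM and the gene was not called. In Cd40-/- Control 1 of 8 was lower (2.07% of genes), which was Ccl20 at 215 CPM in WT-Control, 139 in WT-RANKL-Ab and 101 in the Cd40-/- Control library. Without the 1% of cells richest in each gene, Ccl5 (294 against 710 CPM) and Ccl11 (4.37 against 16.8 CPM) were called lower in Cd40-/- Control as well. Ccl5 was also found in differentiated gates of WT-Control, at 1058 CPM in the microfold gate, 1056 in the enterohepatic, 790 in the neuroendocrine (led by Pth) and 729 in the ciliated gate. In WT-RANKL-Ab these gates stood at 380, 360, 19.5 and 115 CPM, and in Cd40-/- Control at 238, 371, 220 and 338 CPM, so that each was lower than in WT-Control in both. In the microfold gate 4 of the 343 WT-Control cells held 68.4% of the Ccl5 UMIs, with 1119 in 1 cell, and without the richest 1% of cells the levels were 347, 103 and 139 CPM. In the ciliated gate they were then 450, 59.8 and 249.9 CPM. The keratinocyte gate held 571, 755 and 318 CPM, but 229, 115 and 137 CPM without the 1% of cells richest in Ccl5, of which the 2 of WT-RANKL-Ab held 85.3% of its UMIs.

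The share of the change over all cells that went with the mix of gates differed between members. The level over all cells was recomputed with the gate shares of WT-RANKL-Ab and the levels of WT-Control (mix alone), and the reverse (levels alone). For Ccl11 the measured log2 ratio of WT-RANKL-Ab to WT-Control was -1.75, with 0.66 for the mix alone and -2.30 for the levels alone. For Ccl6 and Ccl9 the measured ratios were -1.56 and -1.66, the mix alone gave -1.41 for each, and the levels alone gave 0.24 and 0.31. The mix alone lay above 0 for Ccl11. Ccl20 had both, with -1.43 for the mix and -0.91 for the levels of a measured -2.90. Ccl5 was -1.54 as measured, -1.11 by mix and 1.02 by levels. Its level was higher in the Aire+ gate of WT-RANKL-Ab (4698 against 1278 CPM), where 3 of 208 cells held 46.0% of its UMIs. That gate held 24.9% of the UMIs of WT-Control. Ccl5 was also higher in the keratinocyte gate, close in the cTEC gate, and lower in the CCL21+, tuft, microfold, neuroendocrine, ciliated, enterohepatic and progenitor gates. Ungated cells were treated as a class of their own. Cxcl10 was -1.39, with -0.37 by mix and -0.69 by levels. In Cd40-/- Control the largest ratio, that of Ccl5 at -1.27, was made of -0.41 by mix and -0.86 by levels. The parts need not add up to the whole, since mix and levels also act together.

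**Figure D5:**
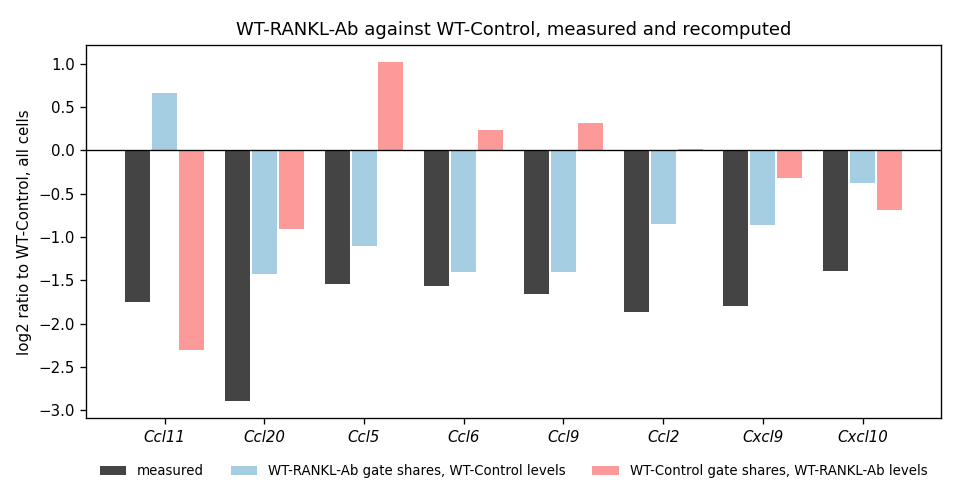
Log2 ratio of WT-RANKL-Ab to WT-Control over all cells for each chemokine as measured, with the mix of gates alone exchanged and with the levels in the gates alone exchanged. For Ccl11 the levels alone give -2.30 and the mix alone 0.66, whereas for Ccl6 and Ccl9 the mix alone gives -1.41.

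Markers of other cells moved with the libraries as well. The summed level of 13 macrophage and dendritic cell markers over all cells was 498, 120, 446 and 67.7 CPM, and that of 6 neutrophil and eosinophil markers 1021, 56.7, 750 and 11.7 CPM, the same order of libraries as the chemokines, and their part in these results was not tested. In the CCL21+ gate the macrophage and dendritic sum was 34.9, 4.91, 33.6 and 3.37 CPM, and 8 of the 13 had UMIs in the gate of WT-Control, with Itgax, Xcr1, Siglech, Cd209a and Fcgr1 at 0. The neutrophil and eosinophil sum in the CCL21+ gate was 33.8, 4.91, 57.4 and 1.05 CPM, low in both antibody-treated libraries as Ccl11 was, and the part of these markers was not tested. In the microfold gate 12, 5 and 10 of the 13 markers had a UMI in the first 3 libraries and summed to 938, 1408 and 989 CPM, with Siglech at 0 in each, and the neutrophil and eosinophil markers summed to 2613, 618 and 3502 CPM. Cells with no epithelial UMI and at least 3 macrophage and dendritic markers numbered 2, 1, 1 and 0, and those with 3 neutrophil and eosinophil markers 4, 1, 2 and 0. They held at most 20 UMIs of any of the 8 chemokines in a library. Cells of these kinds that carried an epithelial UMI were not counted, so the counts cannot give the part of such cells in the chemokine UMIs. The 6 mesenchymal markers summed to 10.5, 6.16, 40.2 and 34.9 CPM in the CCL21+ gate. The T cell sum over all cells was 169, 920, 988 and 1943 CPM.

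Other chemokines were lower with the 8. Of 22 other chemokine genes measured over all cells, 14 were lower in WT-RANKL-Ab than in WT-Control (13.6% of all genes) with a median log2 ratio of -1.69, 2 (Ccl22 and Cxcl1) in Cd40-/- Control (1.11% of genes) with -0.30, and 17 in Cd40-/- RANKL-Ab (18.9% of genes) with -2.32, where Ccl4 and Cx3cl1 were the 2 that were higher (9.15% of genes). The medians of all genes in these comparisons were -0.01, 0.06 and -0.07. Ccl8 stood at 49.7, 4.11, 46.2 and 0.313 CPM over all cells and at 58.2, 4.44, 67.1 and 0.421 CPM in the CCL21+ gate. Ccl1, a ligand of CCR8, stood at 43.2, 4.63, 30.8 and 0 CPM, and the neutrophil ligand Cxcl2 at 98.0, 26.2, 68.4 and 0.574 CPM. All 3 thus had the order of Ccl11, with the 2 controls above WT-RANKL-Ab and Cd40-/- RANKL-Ab lowest. The genes of the receptors were scarce in this epithelial sort. Ccr6 stood at 7.13, 1.11, 5.63 and 0.104 CPM and Ccr2 at 3.47, 0.350, 2.76 and 0.261 CPM, and both were called lower in WT-RANKL-Ab than in WT-Control. Cxcr3 had 17, 2, 8 and 2 UMIs.

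Genes of interferon, NF-kB and type 2 signalling were counted in the same way. Over all cells 13.6% of all genes were lower and 4.45% higher in WT-RANKL-Ab than in WT-Control, and 18.9% lower and 9.15% higher in Cd40-/- RANKL-Ab. Of 15 interferon signalling genes 0 were lower and 1 (Ifnar2) was higher in WT-RANKL-Ab than in WT-Control over all cells, with a median of 0.45, and 2 were lower (Irf7 and Ifngr2) and 3 higher (Socs3, Ifnar2 and Ifngr1) in Cd40-/- RANKL-Ab. In the CCL21+ gate 4 of the 15 were lower (5.75% of genes) and 2 higher (4.94% of genes) in Cd40-/- RANKL-Ab than in WT-Control. Irf7, the interferon-induced transcription factor, stood at 396, 166, 213 and 10.5 CPM in the CCL21+ gate and at 139, 101, 64.4 and 11.02 CPM over all cells. Socs3, a feedback inhibitor of cytokine signalling, was 50.8, 96.4, 72.3 and 211 CPM over all cells, and Ifnar2, a subunit of the type I interferon receptor, 25.6, 52.8, 37.3 and 69.7 CPM. Of 17 NF-kB genes, 1 (Nfkbie) was lower and 0 were higher in WT-RANKL-Ab than in WT-Control. In Cd40-/- RANKL-Ab 5 were lower (Nfkb2, Relb, Nfkbia, Nfkbie and Tnfrsf11a) and 1 higher (Tnfaip3) over all cells. In the CCL21+ gate of Cd40-/- RANKL-Ab 0 of the 17 were lower (5.75% of genes) and 1 higher (4.94% of genes) than in WT-Control. In that gate of WT-RANKL-Ab 0 were lower (2.82% of genes) and 0 higher (1.53% of genes). Nfkbia, the inhibitor induced by NF-kB itself, stood at 1571, 912, 1560 and 552 CPM over all cells but at 741, 930, 769 and 699 CPM in the CCL21+ gate. Nfkbie, another inhibitor of the pathway, was 82.1, 38.6, 58.8 and 29.6 CPM over all cells, and Tnfrsf11a, which encodes RANK, was 87.6, 58.6, 76.6 and 25.5 CPM. Of 6 type 2 signalling genes 1 was lower and 1 (Il25) higher in WT-RANKL-Ab. The lower was Tslp, the epithelial cytokine upstream of type 2 immunity, with 12.1, 1.99, 4.45 and 1.31 CPM, whereas the alarmin Il33 stood at 5.86, 11.1, 9.68 and 15.6 CPM.

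Genes whose levels were most like each chemokine were ranked by Pearson's r of log2(CPM + 1) over 41 sums of a gate and library with at least 30 cells each, among 16150 genes. The points share libraries and depth, and the values are descriptions. Ccl20 was nearest to Lyz1, Gjb2 and Bcl2a1a (r = 0.95 each), and Ccl9 to Lyz1 and Gjb2 (0.94). Cxcl9 was nearest to Ctss and Skint2 (0.95), and Cxcl10 to Cd74 (0.91), H2-Aa and H2-Eb1 (0.90), 3 genes of MHC class II presentation. Ccl11 was nearest to Gm8113 (0.85) and to Dhx58 (0.80) and Ifi204 (0.79), both known as interferon-induced genes. Ccl5 was nearest to Nos2 (0.89), Ccl6 to 2010003K11Rik (0.93) and Ccl2 to H1foo (0.84). Among the members, r was 0.93 for Ccl20 with Ccl9, 0.92 for Ccl20 with Ccl6 and for Ccl6 with Ccl9, and 0.81 for Cxcl9 with Cxcl10, and Ccl11 had 0.01 to 0.38 with the other 7.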

How the data were processed

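UMI counts of 4 droplet-based scRNA-seq libraries were analysed. The authors trimmed reads with Fastp, aligned them to mm10 and deposited whole-number UMI counts per gene and called cell, without normalization (Cell Ranger 5.0.1 per the file headers; the submitters' processing notes name 5.1). Barcodes under 200 genes or over 25% mitochondrial UMIs were removed, and no doublet caller was run. Cells were gated by the mean z-score of log-scaled class markers (limit 0.5, lead over the next class 0.2), and all others were left ungated. Ratios were computed for classes with at least 30 cells in both libraries, with exact conditional binomial 95% intervals. The interval of a level is exact Poisson. Promoter windows came from RefSeq. The genes and lists were chosen with earlier results of these data known, and the gate limits were set after seeing them. The genes named are the 8 chemokines, the 3 genes most like each, and at most 3 of each list by the size of their ratio in Cd40-/- RANKL-Ab against WT-Control; Cxcr3 and the other list genes named with a count were added after their values were seen. The fold calls were tested on simulated data. Alternatives covered scaling, weighting, filters, gates, shared barcodes and the richest cells. Python 3.11.15 with numpy 2.4.6, scipy 1.17.1 and pandas 2.3.3, and edgeR 4.0.16 for TMM factors, were used. Bulk and well-based data were not used here. A receptor of the list is not reported here.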

Additional observations from a re-analysis of the deposited data

Results flagged for a closer look

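Cxcl10 in the T cell gate moved one way in wild-type and the other way in Cd40-/- mice. Its log2 ratio of antibody to control was -1.87 in wild-type mice and 0.37 in Cd40-/- mice. The levels were 333 CPM in control and 90.7 in antibody-treated wild-type mice, and 108 and 140 in the corresponding Cd40-/- mice. The gate held 73 cells in WT-Control, with a median of 4022 UMIs against 1929.5, 1949 and 1855 in the other libraries. Ccl1 also stood apart in the WT-Control gate, at 38.5 CPM against 0.515, 1.19 and 0 in the others. The flagged difference thus leans on a small gate unlike the others. The part of depth and of RNA from other cells was not tested, nor was the difference between the genotypes.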

How the results depend on the processing

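Up to 76 ratios were followed through each alternative, over all cells and in the CCL21+, Aire+, microfold, cTEC and progenitor gates. None of those that were called was reversed. In other gates, called Ccl2 ratios changed direction without the 1% of cells richest in Ccl2. The keratinocyte levels of WT-RANKL-Ab against WT-Control went from 34.4 and 71.2 CPM to 11.2 and 7.37 CPM. The neuroendocrine levels of Cd40-/- Control against WT-Control went from 104 and 48.6 CPM to 9.52 and 17.1 CPM. The counts of chemokines called over all cells kept their value in each alternative but 1. With each cell given equal weight, 0 in place of 1 chemokine was lower in Cd40-/- Control than in WT-Control. For Ccl11 in the CCL21+ gate, WT-RANKL-Ab against WT-Control was -2.64 with TMM factors, -2.59 without shared barcodes and -2.94 without the 1% of cells richest in Ccl11. Cd40-/- Control against WT-Control was -0.35 with TMM factors. Cd40-/- RANKL-Ab was -5.81 against WT-Control and -5.62 against Cd40-/- Control with a stricter gate, and -6.05 and -5.87 without the richest 1% of cells. The causes of these moves were not tested. Without the 1% of cells richest in each gene, several gate calls ended, among them Ccl20 in the CCL21+ gate and Ccl9 in the enterohepatic gate of Cd40-/- Control, and Ccl9 in the Aire+ gate and Ccl2 in the microfold gate of WT-RANKL-Ab, each against WT-Control. Other calls were gained against WT-Control. Among them were Ccl5 and Ccl11 as lower in the Aire+ gate of Cd40-/- Control, and Ccl2 as higher in that gate of WT-RANKL-Ab. TMM factors lowered the Ccl11 ratio of WT-RANKL-Ab to WT-Control over all cells from -1.75 to -1.89, a shift that all genes share. With 10 CPM added, the share of all genes lower over all cells was 2.84%, 0.26%, 4.86% and 4.03% in the 4 comparisons. Thinned to 2000 UMIs, 49.0%, 11.9%, 49.1% and 3.73% of CCL21+ cells held a Ccl11 UMI. No paired analysis was possible because each condition has 1 library. The total of 24 Ccl20 and 32 Ccl9 UMIs in Cd40-/- RANKL-Ab limits every value of these genes in that library, and gates of 3 or 4 cells there allow no ratio.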
